A study of Mus musculus with 12 samples.

Results

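Axon guidance ligands and receptors were described across 12 RNA sequencing libraries of mouse spinal cord. The set was taken by symbol from 46078 genes: all genes whose symbol begins with Sema3 to Sema7, Plxn, Epha, Ephb, Efna, Efnb or Unc5, or is Slit, Robo, Ntn or Nrp with a number. This gave 72 genes. Of these, 67 encode guidance ligands (34) or receptors (33). The other 5 share only the start of a symbol: Unc50 and Unc5cl, which are no netrin receptors, and Plxna4os1, Plxna4os2 and Plxna4os3, antisense genes of the Plxna4 locus. All 67 ligands and receptors passed a filter on low counts, as did Unc50 and Plxna4os1, so that 69 genes were tested. Unc5cl had 67 counts over all libraries, and Plxna4os2 and Plxna4os3 had 0.

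Guidance ligands are secreted or membrane-bound proteins that attract or repel growing axons and moving cells, and each family signals through receptors of its own. Semaphorins bind plexins, the secreted class 3 semaphorins mostly with a neuropilin as co-receptor. Ephrins bind Eph receptor tyrosine kinases, Slits bind Robo receptors, and netrins bind Dcc and the Unc5 receptors. Many of these genes act outside the nervous system too, in blood vessels and immune cells, and several, among them Sema3a, Sema4d, Epha4 and Efnb3, are known as barriers to axon regrowth after injury of the cord.

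The mice were of the host strain C57BL6/cJ in every group. There were 4 groups of 3 samples: cord without injury, cord after spinal cord injury (SCI) with no transplant, SCI with transplanted syngeneic mesenchymal stem cells (MSC), and SCI with transplanted allogeneic MSC. MSC are multipotent stromal cells. Syngeneic cells come from a genetically matched donor and allogeneic cells from an unmatched one. The sources used here give neither the type of injury, the time between injury and sampling, the stretch of cord taken, the donor strain, nor the age and sex of the mice. They name no control procedure for the transplantation. Whether each sample came from its own animal is not labelled, so p-values measure only how far these samples differ, which could be technical.

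Total counts ranged from 8705942 to 26151928 per library, and the 72 genes took 0.262% to 0.342% of them. Levels are given as CPM, counts scaled to a common library size with a correction for composition. The markers of cord tissue were present in all groups, with summed neuron markers of 13740 to 15450 CPM and oligodendrocyte markers of 34530 to 83020 CPM in non-injured cord. Libraries within a group were not alike. The summed level of 12 macrophage and microglia markers was 183.4 to 249.9 CPM in non-injured cord and 1739 to 2218 CPM after SCI. With syngeneic cells it was 873 and 639.9 CPM in replicates 1 and 2 and 2112 CPM in replicate 3. Among the non-injured libraries, replicate 3 had an oligodendrocyte marker sum of 83020 CPM against 43370 and 34530 CPM. It was the lowest of its group for 38 of the 67 ligands and receptors and the highest for 22. In bulk tissue, fewer cells of a type and less RNA per cell cannot be told apart.

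In non-injured cord the most abundant member per length of exon was Efnb3, ephrin-B3, a transmembrane ligand of Eph receptors that is known from myelin and the spinal midline. Its level was 99.7 CPM per kb of exon ± 29.1 (SD, n = 3). Sema7a, a membrane-anchored semaphorin, followed with 40.7 ± 2.78 CPM per kb (SD, n = 3). These were the first and second gene in the order by level per kb in all 4 groups. Then came the plexin Plxnb3 at 21.1 ± 5.19, the netrin receptor Unc5b at 20.9 ± 3.95, the semaphorin Sema4d at 17.8 ± 4.48 and Sema6d, another semaphorin, at 17.8 ± 1.28 CPM per kb (SD, n = 3 each). In each non-injured library Plxnb3 and Unc5b stood above Sema4d and Sema6d. The order of Plxnb3 and Unc5b differed between libraries, as did that of Sema4d and Sema6d, so the order within these pairs is not resolved. The median over the 67 genes was 3.17 CPM per kb; 57 genes reached 1 CPM per kb, 11 reached 10, and the lowest was the netrin Ntn5 at 0.0644 CPM per kb.

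**Figure D1:**
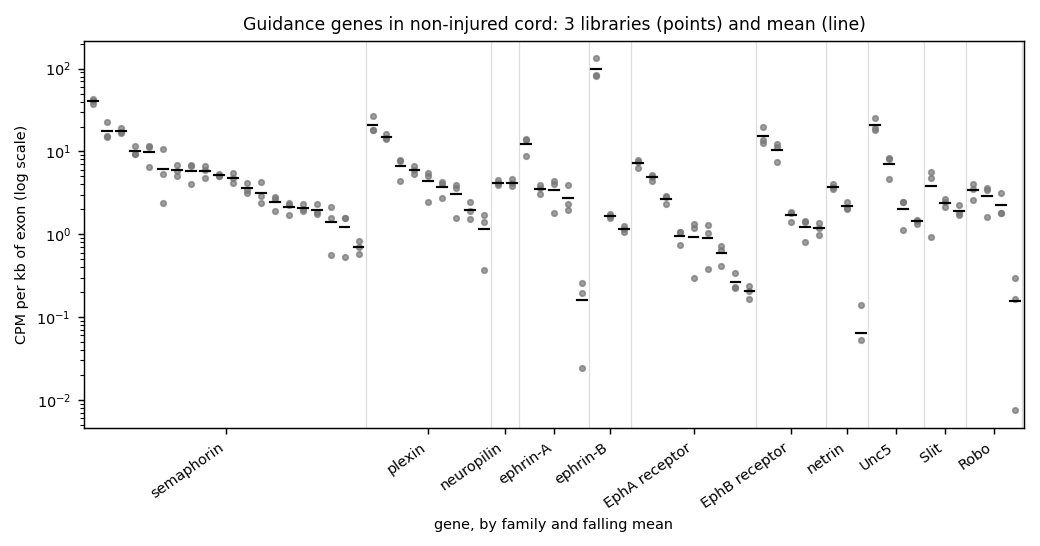
Levels of the 67 guidance ligands and receptors in non-injured cord, as CPM per kb of exon on a log scale, grouped by family and ordered by falling mean within it. Points are the 3 libraries and lines their mean (a library with 0 counts is not drawn); the B-type ephrins are led by Efnb3 at 99.7 CPM per kb, and the netrins end with Ntn5 at 0.0644.

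Injury against no injury asked which guidance genes differ between injured and intact cord. Both neuropilins, 3 plexins (Plxnb2, Plxnd1 and Plxnc1), 3 semaphorins (Sema3c, Sema6d and Sema3d), 2 ephrins (Efnb1 and Efnb2) and 1 Eph receptor (Ephb4) were higher after SCI, by 1.46-fold to 3.53-fold. Efnb3, Efna2, Epha10 and Unc5b were lower, by 1.5-fold to 1.85-fold. With the antisense gene Plxna4os1, 16 of 69 members were called at an edgeR Benjamini-Hochberg adjusted p under 0.05, 12 higher and 4 lower. That is 23.2% of the members, where 25.8% of all 16527 genes tested were called. By direction, 17.4% of the members and 16.6% of all genes were called higher, and 5.8% of the members and 9.26% of all genes were called lower. The share called was thus near that of all genes. In 26 members all SCI libraries lay above all non-injured ones and in 7 all lay below, that is 37.7% and 10.1% of the members beside 26.3% and 21.2% of all genes. Receptors and ligands gave similar counts: 6 receptors were higher and 2 lower of 33, and 5 ligands were higher and 2 lower of 34. The median log2 fold change was 0.40 over the receptors, 0.07 over the ligands and 0.01 over all genes. The number of members called fell to 7 without SCI replicate 2, to 9 without non-injured replicate 1 and to 10 without SCI replicate 1. In the same fits 14%, 16.5% and 18.2% of all genes were called.

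**Figure D2:**
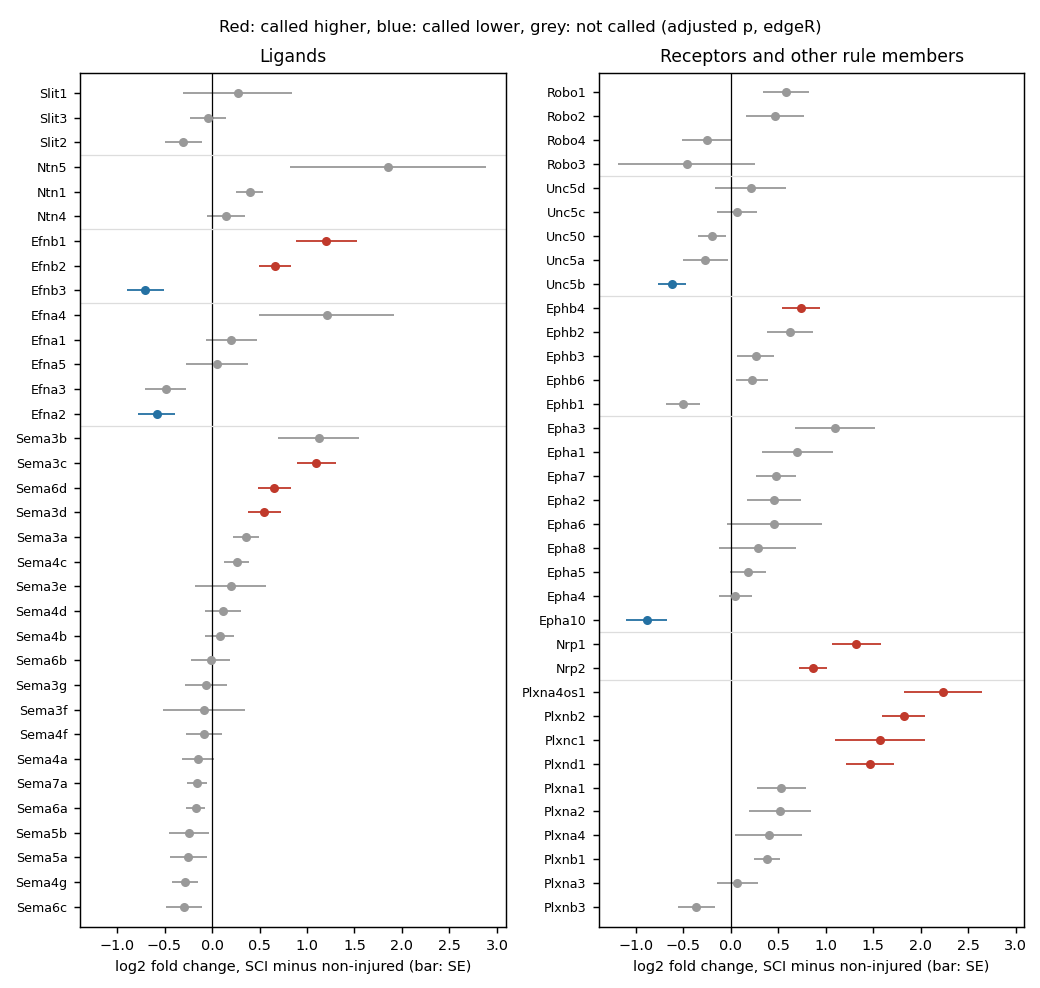
Log2 fold change of each tested member in SCI against non-injured cord, ligands on the left and receptors, Unc50 and the antisense gene Plxna4os1 on the right, grouped by family, with bars for the SE. Red points were called higher, blue ones lower and grey ones not called; both neuropilins and all 3 B-type ephrins were called, whereas none of the netrins, Slits or Robo receptors was.

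The largest log2 fold change among the called coding members was that of Plxnb2 (ENSMUSG00000036606; GRCm38 chr15:89155549-89180788, minus strand), plexin-B2, a receptor of class 4 semaphorins. Its level was 45.5, 52.0 and 40.9 CPM in the non-injured libraries and 151.6, 185.2 and 151.0 CPM in the SCI libraries. Every SCI library thus stood far above every non-injured one. The log2 fold change was 1.82 (SE 0.23, edgeR adjusted p = 0.000337), which is 3.53-fold. In the order by CPM per kb, Plxnb2 stood at place 17 in non-injured cord and at place 4 after SCI.

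Plxnd1 (ENSMUSG00000030123; chr6:115954811-115995005, minus strand), plexin-D1, is best known as a receptor on vessels that binds Sema3e. It was at 11.2, 13.8 and 18.0 CPM in non-injured cord and at 42.5, 39.7 and 36.6 CPM after SCI. The groups did not overlap, and the log2 fold change was 1.47 (SE 0.25, edgeR adjusted p = 0.0018). Plxnc1 (ENSMUSG00000074785; chr10:94790866-94944835), plexin-C1, is the receptor of Sema7a. It was at 11.7, 14.4 and 3.08 CPM in non-injured cord and at 27.6, 34.1 and 24.7 CPM after SCI, again without overlap but with a low non-injured replicate 3. Its log2 fold change was 1.57 (SE 0.48, edgeR adjusted p = 0.0318). The call of Plxnc1 was lost in 5 of 11 alternatives (adjusted p up to 0.115). Its ligand Sema7a was not called, with a log2 fold change of -0.16 (95% interval -0.39 to 0.07, adjusted p = 0.292).

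Nrp1 (ENSMUSG00000025810; chr8:128358604-128503363, plus strand), neuropilin-1, is a co-receptor for class 3 semaphorins and for vascular endothelial growth factor. It was at 37.5, 40.2 and 45.2 CPM in non-injured cord and at 115.7, 103.1 and 88.5 CPM after SCI. The lowest SCI library lay well above the highest non-injured one, and the log2 fold change was 1.32 (SE 0.26, edgeR adjusted p = 0.00365). Nrp2 (ENSMUSG00000025969; chr1:62703285-62818695), its paralog with overlapping ligands, was at 53.3, 49.5 and 46.0 CPM and at 89.6, 94.0 and 86.8 CPM. These groups did not overlap either, with a log2 fold change of 0.86 (SE 0.15, edgeR adjusted p = 0.00184).

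Plxnb2, Plxnd1 and Nrp1 were the receptors with the largest rises that kept their call in every alternative, so the 250 bases before their RefSeq start (GRCm38.p6) are shown. They are printed 5′ to 3′ on the strand of the gene, with each GC box, the letters GGGCGG on either strand, in capitals. Plxnb2 lies at chr15:89180789-89181038 on the minus strand (the outer of its listed starts), Plxnd1 at chr6:115995006-115995255 on the minus strand, and Nrp1 at chr8:128358823-128359072 on the plus strand. The Nrp1 window lies inside the gene span given above, which begins at 128358604. It is thus upstream of the RefSeq start and not of the whole annotated gene.
Plxnb2: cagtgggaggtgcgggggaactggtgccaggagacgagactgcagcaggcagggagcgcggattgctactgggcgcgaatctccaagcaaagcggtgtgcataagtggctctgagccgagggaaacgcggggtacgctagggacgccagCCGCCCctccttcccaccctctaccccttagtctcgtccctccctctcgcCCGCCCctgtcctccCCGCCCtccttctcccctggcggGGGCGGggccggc
Plxnd1: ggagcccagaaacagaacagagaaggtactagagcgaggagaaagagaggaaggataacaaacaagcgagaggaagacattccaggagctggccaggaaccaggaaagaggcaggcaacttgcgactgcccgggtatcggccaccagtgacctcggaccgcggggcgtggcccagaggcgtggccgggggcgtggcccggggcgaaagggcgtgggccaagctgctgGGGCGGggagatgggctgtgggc
Nrp1: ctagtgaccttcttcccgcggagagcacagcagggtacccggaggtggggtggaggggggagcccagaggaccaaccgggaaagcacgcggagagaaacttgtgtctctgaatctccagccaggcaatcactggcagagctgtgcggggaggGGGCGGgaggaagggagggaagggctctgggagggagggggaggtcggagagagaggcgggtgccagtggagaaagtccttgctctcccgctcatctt

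The Plxnb2 sequence held 4 GC boxes and the other two held 1 each. Promoters were found for 60 of the 72 symbols, some with several starts. A GC box was in 32.7% of all 32851 promoters of this length, in 52 of 74 promoters of the guidance genes (70.3%) and in 13 of 16 promoters of members called after SCI (81.2%). These 16 promoters do not stand for the 16 called members, as a gene with several starts was entered more than once. The promoters of the guidance genes were also richer in G and C, with a median of 64.4% against 52.4% over all promoters, so the higher share of GC boxes has a difference in base composition beside it whose part was not tested. None of the 3 sequences held an AP-1 site (TGANTCA), an E-box (CACGTG) or a PU.1 site (GAGGAAGT), each searched on both strands; these were in 6.75%, 6.02% and 2.44% of all promoters. A match or its absence describes the letters of this window only.

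Among the semaphorins, 3 of 20 were called, all higher, and the median log2 fold change of the family was -0.04. Sema3c (ENSMUSG00000028780; chr5:17574281-17730268), a secreted class 3 semaphorin that signals through neuropilins and plexin-D1, was at 36.4, 38.7 and 36.6 CPM in non-injured cord and at 73.1, 81.5 and 84.4 CPM after SCI. The 3 non-injured values were nearly equal and all SCI values lay far above them. The log2 fold change was 1.10 (SE 0.20, edgeR adjusted p = 0.00289). Sema6d, a transmembrane ligand of plexin-A1, was at 180.9, 178.3 and 202.9 CPM and at 270.8, 324.2 and 291.6 CPM, without overlap, with a log2 fold change of 0.66 (SE 0.18, edgeR adjusted p = 0.0187). Sema3d, a secreted class 3 semaphorin, was at 15.8, 14.9 and 20.2 CPM and at 24.3, 21.6 and 28.7 CPM. Its SCI libraries were only just above the highest non-injured one, with a log2 fold change of 0.55 (SE 0.18, edgeR adjusted p = 0.0401). The call was lost in 6 of 11 alternatives for Sema3d (adjusted p up to 0.13) and in 3 for Sema6d (up to 0.0783).

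The semaphorins best known as barriers to regrowth did not pass the test. Sema3a, the repellent of the fibrous scar, was at 31.9, 26.4 and 27.8 CPM in non-injured cord and at 36.3, 33.2 and 41.2 CPM after SCI. All SCI libraries were above all non-injured ones, by a log2 fold change of 0.36 (95% interval 0.06 to 0.66, edgeR adjusted p = 0.0777). Sema4d, a ligand of plexin-B1 made by oligodendrocytes, overlapped between the groups, with a log2 fold change of 0.12 (95% interval -0.30 to 0.53, adjusted p = 0.7). Sema5a, another oligodendrocyte semaphorin and the ligand of plexin-B3, gave -0.25 (95% interval -0.68 to 0.18, adjusted p = 0.382). Of the plexins these ligands bind, Plxnb1 gave 0.38 (95% interval 0.08 to 0.68, adjusted p = 0.0601), Plxnb3 -0.36 (-0.79 to 0.06, adjusted p = 0.197), Plxna1 0.53 (-0.04 to 1.10, adjusted p = 0.157) and Plxna4 0.40 (-0.37 to 1.17, adjusted p = 0.445). None of these 4 was called. Plxnb2, given above as a receptor of class 4 semaphorins, the class of Sema4d, was called higher (1.82, adjusted p = 0.000337). Both neuropilins, co-receptors for the class of Sema3a, were called higher too, with 1.32 for Nrp1 (adjusted p = 0.00365) and 0.86 for Nrp2 (adjusted p = 0.00184).

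All 3 transmembrane B-type ephrins were called, and not in one direction. Efnb1 was at 3.67, 4.0 and 4.31 CPM in non-injured cord and at 8.15, 10.4 and 9.02 CPM after SCI, for a log2 fold change of 1.2 (SE 0.32, edgeR adjusted p = 0.0193). Efnb2, the ephrin of arterial vessels, was at 10.9, 11.9 and 11.3 CPM and at 21.2, 18.4 and 14.4 CPM, for a log2 fold change of 0.67 (SE 0.17, edgeR adjusted p = 0.0142). In neither did the groups overlap, and the SCI libraries of Efnb2 were the more spread. Efnb3 (ENSMUSG00000003934; chr11:69554092-69560205) was lower: 267.5, 260.0 and 424.3 CPM in non-injured cord and 177.4, 195.7 and 212.5 CPM after SCI. Its 3 SCI libraries were below every non-injured one, and non-injured replicate 3 stood far above the other two. The log2 fold change of Efnb3 was -0.70 (SE 0.20, edgeR adjusted p = 0.0225), and without non-injured replicate 3 it was -0.45 (adjusted p = 0.0532). Each B-type ephrin lost its call in 3 or 4 of 11 alternatives. The GPI-anchored ephrin Efna2 was lower (6.46, 7.68 and 8.36 CPM against 5.70, 5.0 and 4.31 CPM; log2 fold change -0.58, SE 0.19, edgeR adjusted p = 0.0461). Its call was lost in 7 of 11 alternatives (adjusted p up to 0.177). Efna5, which repels growing axons through EphA receptors, overlapped between the groups with a log2 fold change of 0.05 (95% interval -0.66 to 0.77, adjusted p = 0.93).

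Of 14 Eph receptors, 1 was called higher and 1 lower. Ephb4, the receptor of ephrin-B2 on venous vessels, was at 6.46, 8.62 and 8.41 CPM in non-injured cord and at 14.2, 12.9 and 12.1 CPM after SCI. The groups lay apart, with a log2 fold change of 0.74 (SE 0.20, edgeR adjusted p = 0.0195), and the call was lost in 3 of 11 alternatives (adjusted p up to 0.0783). Epha10 (ENSMUSG00000028876; chr4:124880899-124917800), an Eph receptor without kinase activity, was at 56.3, 53.7 and 45.5 CPM and at 30.5, 23.5 and 30.1 CPM. Every SCI library was below every non-injured one, with a log2 fold change of -0.89 (SE 0.21, edgeR adjusted p = 0.0115). Without SCI replicate 2 the adjusted p of Epha10 was 0.0576. Exons of Ephb4 and Epha10 overlap a gene on the other strand (Zan and 1700125G02Rik), and whether the counting used strand is not known here, so both values are uncertain. Epha4, the receptor long studied in astrocyte scars and corticospinal axons, was at 39.5, 42.2 and 35.6 CPM and at 42.5, 38.5 and 40.4 CPM. The groups overlapped, and the log2 fold change of Epha4 was 0.05 (95% interval -0.34 to 0.43, adjusted p = 0.872). Ephb2 gave 0.62 (95% interval 0.09 to 1.15, adjusted p = 0.0797).

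No netrin, Slit or Robo gene was called, and 1 Unc5 receptor was. Unc5b (ENSMUSG00000020099; chr10:60762593-60831581), a netrin receptor also known from vessel sprouts, was at 120.1, 113.0 and 159.0 CPM in non-injured cord and at 78.2, 94.2 and 82.7 CPM after SCI. All SCI libraries were below all non-injured ones, with a log2 fold change of -0.62 (SE 0.15, edgeR adjusted p = 0.0099). The netrin receptors Unc5a and Unc5c were not called and gave -0.27 for Unc5a (95% interval -0.79 to 0.26, adjusted p = 0.459) and 0.07 for Unc5c (-0.40 to 0.53, adjusted p = 0.855). Ntn1, netrin-1, gave 0.40 (95% interval 0.09 to 0.70, adjusted p = 0.061), and Ntn4, a netrin of basement membranes, 0.15 (-0.29 to 0.59, adjusted p = 0.631). The midline repellents Slit1, Slit2 and Slit3 gave 0.27 (-0.98 to 1.52), -0.30 (-0.73 to 0.12) and -0.04 (-0.45 to 0.37), with adjusted p of 0.773, 0.279 and 0.902. The wide interval of Slit1 goes with a non-injured replicate 3 of 5.49 CPM beside 28.4 and 33.7 CPM, while the SCI libraries lay between 24.2 and 31.7 CPM. Their receptors Robo1 and Robo2 gave 0.58 (0.05 to 1.11, adjusted p = 0.0979) and 0.47 (-0.20 to 1.13, adjusted p = 0.29), and the endothelial Robo4 gave -0.25 (-0.82 to 0.32, adjusted p = 0.523). For these uncalled genes the intervals still hold changes of some size in one direction or both.

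Plxna4os1, named here after its values were seen, was the member with the largest log2 fold change, 2.23 (SE 0.41, edgeR adjusted p = 0.00272). It is an antisense gene (ENSMUSG00000086763; chr6:32511073-32515576) that lies within Plxna4, on the other strand, and touches no exon of it. It was low throughout, with 20 counts in the 3 non-injured libraries together and 80 in the SCI libraries. Its level was 0.425, 0.250 and 0.256 CPM in non-injured cord and 1.59, 2.03 and 0.964 CPM after SCI, so the groups did not overlap. As counting without regard to strand would add reads from introns of Plxna4, whose own log2 fold change was 0.40, its source is uncertain.

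**Figure D3:**
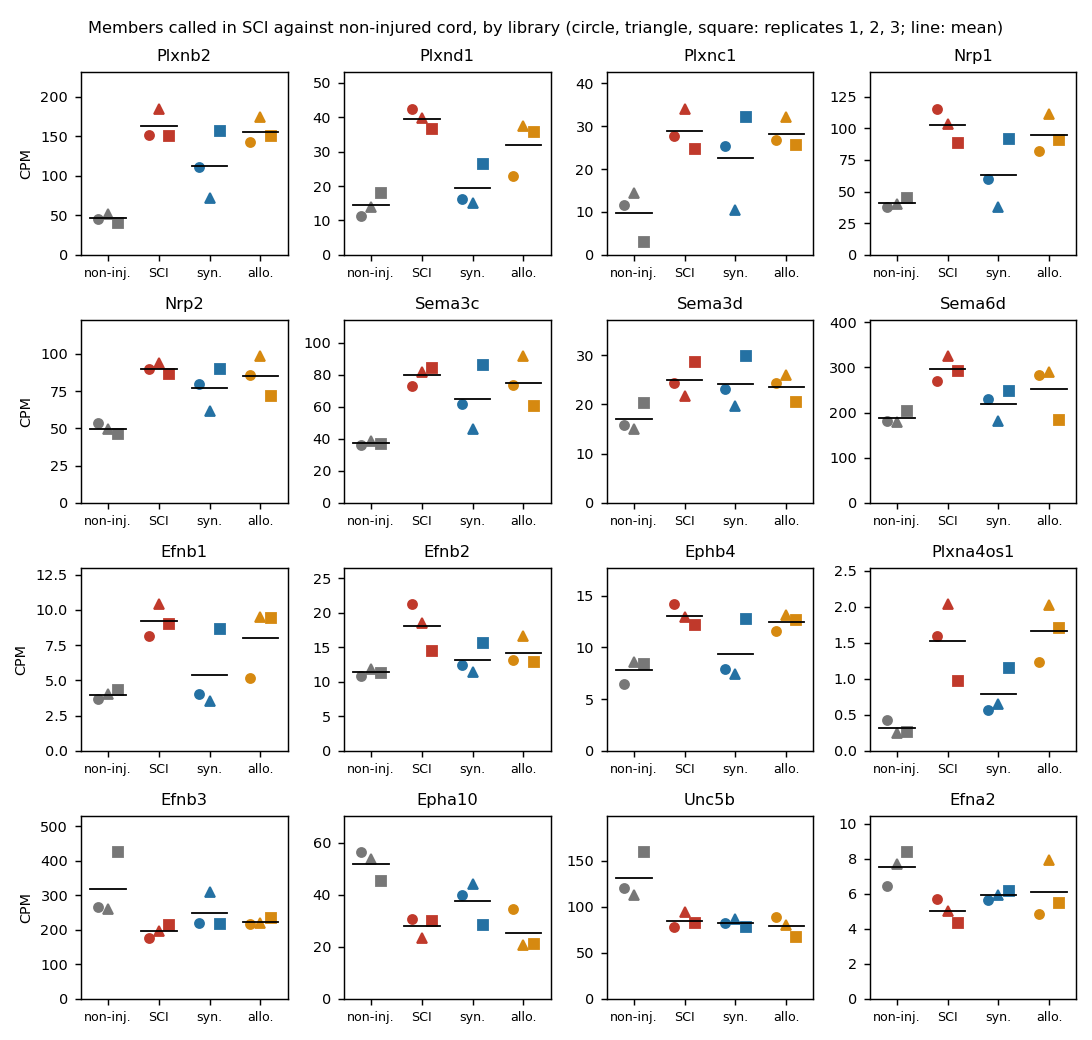
CPM of each called member in every library, 1 panel a gene with its own axis from 0, for non-injured cord, SCI, SCI with syngeneic MSC (syn.) and SCI with allogeneic MSC (allo.); circle, triangle and square mark replicates 1, 2 and 3, and lines the mean. In each panel the 3 SCI libraries lie wholly above or wholly below the 3 non-injured ones, and for Plxnb2, Nrp1, Efnb1 and Plxnd1 syngeneic replicate 3 is the highest of its group.

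The calls of Plxnb2, Plxnd1, Nrp1, Nrp2, Sema3c, Unc5b and Plxna4os1 held in all 11 alternatives run for this comparison, and the other 9 were lost in at least 1. Over these alternatives the log2 fold change ranged from 1.71 to 1.91 for Plxnb2, from 1.31 to 1.65 for Plxnd1, from 1.23 to 1.43 for Nrp1 and from -0.72 to -0.47 for Unc5b.

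Markers of several cell types, but not of all, also differed between these groups. Of the macrophage and microglia markers 12 of 12 were called higher after SCI, of those of fibroblasts and pericytes 8 of 10, and of those of T and natural killer (NK) cells 7 of 8. The summed fibroblast and pericyte level was 312.4 to 553.7 CPM in non-injured cord and 1322 to 1907 CPM after SCI. The T and NK cell sum was 2.5 to 2.74 CPM and 6.97 to 8.46 CPM, with Cd3d and Cd8a at 0 counts in the non-injured libraries. Most of the non-injured sum came from Trac, with 145 counts, and no other marker of this list had more than 7 there. Of the astrocyte markers 6 of 9 were called higher and 1 lower. Of the oligodendrocyte markers 7 of 10 were called lower, and of the neuron markers 7 of 14, with neuron sums of 13740 to 15450 CPM in non-injured cord and 8082 to 9783 CPM after SCI. Of 10 endothelial markers 0 were called, with sums of 337.5 to 495.2 CPM and 353.8 to 444.3 CPM. Of the oligodendrocyte precursor markers 4 of 8 were called higher and of those of meninges 3 of 8. Of the mesenchymal stromal markers 4 of 10 were called higher and 1 lower. Of the Schwann cell markers 1 of 7 tested was called higher, and their sum spread from 276.1 to 1875 CPM in non-injured cord. The part of these cell types in the changes of Plxnb2, Plxnd1, the neuropilins, Efnb3 and the other called members was not tested.

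**Figure D4:**
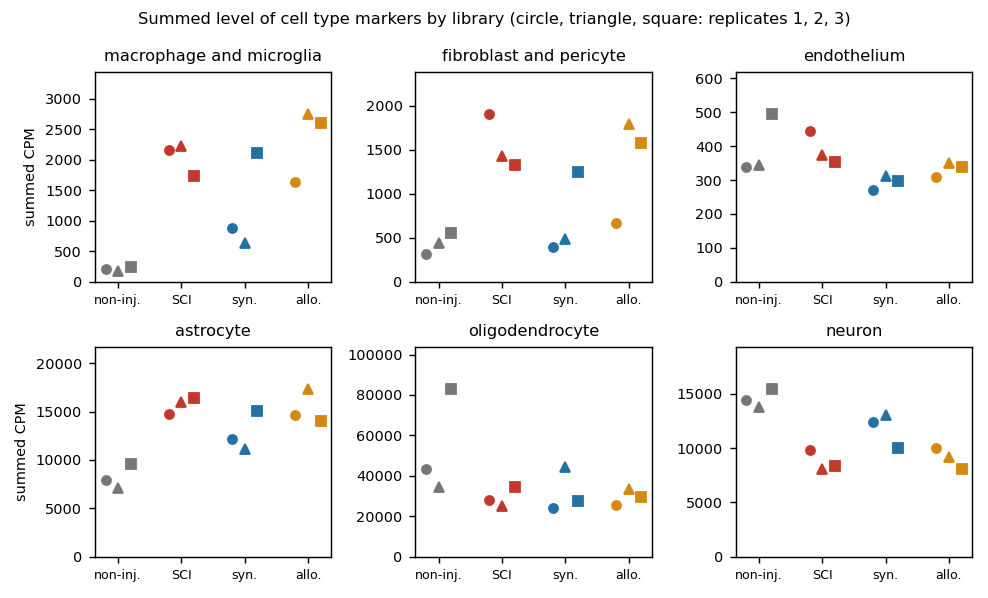
Summed CPM of the markers of 6 cell types in each library, 1 panel a cell type with its own axis from 0; circle, triangle and square mark replicates 1, 2 and 3 of each group. Macrophage and microglia sums were 183.4 to 249.9 CPM in non-injured cord and 1739 to 2218 CPM after SCI, and with syngeneic MSC replicate 3 reached 2112 CPM while replicates 1 and 2 were at 873 and 639.9 CPM.

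Other genes of the guidance pathways, a list of 58 co-receptors, adhesion molecules and intracellular mediators, gave counts like those of the ligands and receptors. After SCI 9 were called higher and 6 lower, that is 25.9% of the list beside 25.8% of all genes, with a median log2 fold change of 0.11. The largest rises were those of Sdc1, syndecan-1, a heparan sulfate proteoglycan (log2 fold change 1.68, SE 0.31, edgeR adjusted p = 0.00291), and Chl1, an adhesion molecule of the L1 family (1.35, SE 0.35, adjusted p = 0.0159). The largest falls were those of Dpysl2 and Dpysl5, collapsin response mediators that link semaphorin receptors to the cytoskeleton, by -0.79 (SE 0.20, adjusted p = 0.0145) and -0.74 (SE 0.18, adjusted p = 0.0119) on the log2 scale.

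The transplanted groups were compared with SCI alone, which asked whether either kind of cell altered the injured cord. With syngeneic MSC, 0 of 69 members were called by edgeR, where 0.0363% of all genes were. At an unadjusted p under 0.05 there were 11 members (15.9%, beside 13.5% of all genes), and DESeq2 called 1, Plxnd1, where it called 0.793% of all genes. The 3 members with the smallest p were Plxnd1, Sema4c and Ntn1. Plxnd1 was at 16.4, 15.2 and 26.5 CPM with syngeneic cells, below the 36.6 to 42.5 CPM of the SCI libraries, with a log2 fold change of -1.04 (SE 0.25, edgeR adjusted p = 0.231; DESeq2 adjusted p = 0.0167). Sema4c, a ligand of plexin-B2, was at 18.1, 17.7 and 20.8 CPM with syngeneic cells against 25.8, 25.9 and 28.1 CPM after SCI, without overlap (-0.50, SE 0.13, edgeR adjusted p = 0.286). Exons of Sema4c overlap a gene on the other strand, so its value is uncertain as well. Ntn1 gave -0.44 (SE 0.14, edgeR adjusted p = 0.312). The endothelial marker sum was 270.5 to 312.5 CPM with syngeneic cells and 353.8 to 444.3 CPM after SCI, and the neuron marker sum 10050 to 13060 CPM and 8082 to 9783 CPM. Neither overlapped between the groups. The T and NK cell sum, 3.84 to 6.23 CPM and 6.97 to 8.46 CPM, did not overlap either. Nor did the fibroblast and pericyte sum, 393 to 1247 CPM and 1322 to 1907 CPM. No marker of these lists was called, and the part of these cell types in the values of the members was not tested. The median log2 fold change over the members was -0.10, beside 0.00 over all genes, and 44 of 69 members lay below 0.

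These counts rested on syngeneic replicate 3. Plxnb2 was at 110.8, 72.2 and 156.2 CPM in syngeneic replicates 1, 2 and 3, and Nrp1 at 59.9, 37.9 and 91.9 CPM. Replicate 3 thus lay within the range of the SCI libraries and the other two below it, and the same held for Efnb1 (4.02, 3.55 and 8.61 CPM) and Ephb4 (7.87, 7.39 and 12.8 CPM). Without that replicate 6 members were called lower than after SCI, where 5.13% of all genes were called: Plxnd1 (log2 fold change -1.36), Efnb1 (-1.31), Nrp1 (-1.10), Plxnb2 (-0.86), Ephb4 (-0.81) and Sema4c (-0.60), with edgeR adjusted p from 0.0173 to 0.0378. The macrophage and microglia sum was 2112 CPM in this replicate and 873 and 639.9 CPM in the other two, and the fibroblast and pericyte sum 1247 CPM beside 393 and 486.9 CPM. The part of these cells in the spread was not tested. Sema3c (61.9, 45.9 and 86.0 CPM) and Nrp2 (80.0, 61.9 and 90.1 CPM) were also highest in replicate 3.

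With allogeneic MSC, 0 of 69 members were called against SCI by edgeR, where 0.188% of all genes were, DESeq2 called 0, and 1 member was under an unadjusted p of 0.05 (1.45%, beside 2.94% of all genes). That member was Ntn4, with a log2 fold change of -0.50 (95% interval -0.95 to -0.05, edgeR adjusted p = 1). Next by p were Ephb3, an ephrin-B receptor, at -0.44 (95% interval -0.88 to 0.00) and Efnb2 at -0.35 (-0.72 to 0.02), both with an adjusted p of 1. Plxnb2 was at 142.7, 174.7 and 150.4 CPM and Nrp1 at 82.5, 111.1 and 90.5 CPM, which overlapped with the SCI libraries. The endothelial marker sum, 310.4 to 351.5 CPM with allogeneic cells, also lay below the 353.8 to 444.3 CPM after SCI, with no endothelial marker called. The T and NK cell sum was 41.2 to 78.1 CPM against 6.97 to 8.46 CPM after SCI, with 4 of 8 markers called higher. Klrb1c, a marker of NK cells, did not follow this sum, with 17 counts in the allogeneic and 37 in the SCI libraries. The part of these cells in the values of the members was not tested. The median over the members was -0.12 and 55 of 69 lay below 0, beside a median of 0.00 over all genes. Both comparisons use the same 3 SCI libraries, so their values are not independent of each other.

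Allogeneic against syngeneic MSC set the kinds of transplanted cell against each other. As the donor strain is not given, the match of the donor and other differences between the cells cannot be told apart. By edgeR 0 of 69 members were called, where 0.611% of all genes were, 7 members were under an unadjusted p of 0.05 (10.1%, beside 14.4% of all genes), and DESeq2 called 0. The smallest p were those of Plxnd1 (22.9, 37.5 and 35.7 CPM with allogeneic cells; log2 fold change 0.73, SE 0.25, edgeR adjusted p = 0.252), Plxna4os1 (1.08, SE 0.37, adjusted p = 0.259) and Sema4c (0.37, SE 0.13, adjusted p = 0.262). Without syngeneic replicate 3, 5 members were called higher with allogeneic cells, where 6.98% of all genes were called: Efnb1 (1.12), Plxnd1 (1.07), Nrp1 (1.00), Plxnb2 (0.81) and Ephb4 (0.75), with edgeR adjusted p from 0.0166 to 0.0301. Without allogeneic replicate 1, Sema5a was called lower (-0.74, adjusted p = 0.0497), where 0.8% of all genes were called. That library stood apart from its group in markers: its fibroblast and pericyte sum was 663.1 CPM beside 1788 and 1574 CPM, and its macrophage and microglia sum 1634 CPM beside 2748 and 2605 CPM. The T and NK cell sum, 41.2 to 78.1 CPM with allogeneic and 3.84 to 6.23 CPM with syngeneic cells, differed between these groups, with 6 of 8 markers called higher. None of the markers of fibroblasts and pericytes, Schwann cells or macrophages and microglia was called here, but their median log2 fold changes were 1.18, 1.01 and 0.84. The part of these cells in the values of Plxnd1, Efnb1, Nrp1 and the others was not tested.

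Each transplanted group was also set against non-injured cord. All 3 such comparisons share the non-injured libraries, so the values stand side by side and their likeness is no separate result. With allogeneic MSC 12 members were called, 9 higher and 3 lower, where 24.9% of all genes were called (16.7% higher and 8.17% lower). With syngeneic MSC 4 were called, 3 higher and 1 lower, where 5.34% of all genes were called (4.92% higher and 0.424% lower). Plxnb2 gave log2 fold changes of 1.82 after SCI, 1.29 with syngeneic and 1.76 with allogeneic cells, Nrp2 0.86, 0.64 and 0.78, Sema3c 1.10, 0.79 and 1.01, and Unc5b -0.62, -0.66 and -0.73. These 4 genes were called in all 3 comparisons. Their calls with syngeneic cells were less stable than those after SCI. They were lost in 7 of 11 alternatives for Sema3c, in 6 for Nrp2, in 4 for Unc5b and in 1 for Plxnb2. Plxnd1 gave 1.47, 0.43 and 1.16, Nrp1 1.32, 0.62 and 1.21, Efnb1 1.2, 0.42 and 1.00, Ephb4 0.74, 0.25 and 0.67, and Epha10 -0.89, -0.46 and -1.02. These 5 were called after SCI and with allogeneic cells and missed the threshold with syngeneic cells. With all libraries, the difference between the transplanted groups was not called for any of these 5. Without syngeneic replicate 3 it was called for Plxnd1, Nrp1, Efnb1 and Ephb4, as given above. Plxnc1 and Plxna4os1 were called with allogeneic cells too (1.53 and 2.33), and so was Ephb1, an ephrin-B receptor, at -0.55 (SE 0.18, edgeR adjusted p = 0.0421), which was not called after SCI (-0.50, adjusted p = 0.0572). With allogeneic cells the call was lost in 7 of 11 alternatives for Plxnc1, in 6 for Efnb1, in 5 for Ephb1 and in 3 for Ephb4. Exons of Ephb1 overlap a gene on the other strand, so its value is uncertain as well. The count for syngeneic cells ranged from 1 to 8 as single libraries were left out, and the share of all genes called moved as well. It was 8 without syngeneic replicate 2, where 10.5% of all genes were called. It was 2 without non-injured replicate 2 or 3 (2.73% and 4.38% of all genes). It was 1 without non-injured replicate 1 (2.14%) and without syngeneic replicate 1 or 3 (4.08% and 2.58%).

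**Figure D5:**
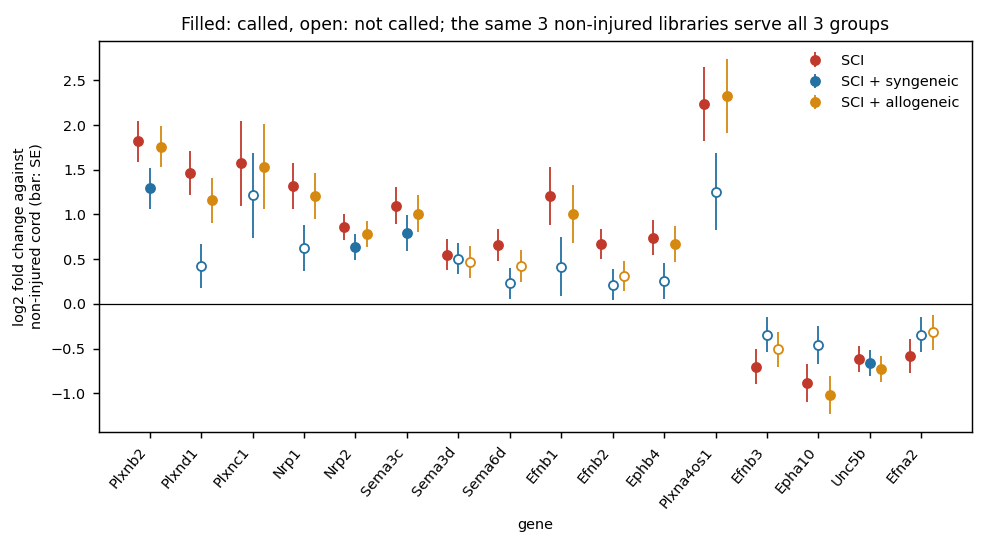
Log2 fold change against non-injured cord of the 16 members called after SCI, in SCI (red), SCI with syngeneic MSC (blue) and SCI with allogeneic MSC (orange), with bars for the SE; filled points are called and open ones are not. The syngeneic point lies nearer to 0 than the SCI point for 15 of the 16 genes and the allogeneic point for 13, in genes that were picked because they were called after SCI, and the same 3 non-injured libraries serve all points.

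The spread between libraries differed between the groups. The median coefficient of variation over the 67 ligands and receptors was 10.9% among the SCI libraries, 21.7% among the non-injured, 20.2% among the syngeneic and 22.9% among the allogeneic ones. Syngeneic replicate 2 was the lowest of its group for 42 of the 67 genes and allogeneic replicate 3 for 34.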

How the data were processed

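Poly(A) RNA from the spinal cord of 12 mouse samples was sequenced with a strand-preserving kit, per the labels' protocols. The authors deposited 1 table of unnormalized read counts, with a row for each Ensembl gene. Per the submitters' processing notes, which state neither roles nor an order, the build was GRCm38 and the tools included STAR 2.5.1, featureCounts 1.5.1, StringTie 1.3.3, Trim Galore 0.4.1, FastQC 0.11.5 and Picard. The sources used here do not give the annotation, the strand setting of the counting or how reads matching several genes were treated. This leaves the values uncertain for 15 members with exons that overlap another gene on the opposite strand.

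Low counts were removed by filterByExpr of edgeR (at least 10 counts in enough libraries and 15 in total), leaving 16527 genes. Counts were scaled by TMM (trimmed mean of M values) and tested with edgeR 4.0.16 in R 4.3.3 (robust quasi-likelihood fit over all 12 libraries, 1 mean per group). Benjamini-Hochberg adjustment of p-values ran over all genes tested in a comparison, and a gene was called below 0.05. Log2 fold changes come with the SE and 95% interval of this fit, CPM use TMM-scaled totals, and levels per kb use the union of exons in GENCODE M21 on GRCm38, from which coordinates were also taken. Alternatives were DESeq2 1.42.0, library totals as the only scaling, limma-voom (limma 3.58.1), no filter on low counts, a fit of only the 2 groups compared, and leaving out each library in turn. Replicate numbers were given in accession order.

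The members and the lists were chosen with earlier results of these data known. Genes named for SCI against non-injured cord are the called members, up to 12 in each direction, with a mean log2 CPM over all 12 libraries of at least 1. Also named are the called members or the 3 smallest p in each other comparison and 32 members of fixed interest. The 2 largest called rises and falls of the other pathway genes were added. Sema3b was named after its values were seen and is not in the counts over named genes given below. Promoters are those of RefSeq on GRCm38.p6, without the bases after the start.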

Additional observations from a re-analysis of the deposited data

How the results depend on the processing

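No paired analysis was possible because the labels give no replicate numbers. Depth limits the precision of members with few counts (Plxna4os1, Ntn5, Efna4, Robo3). Of the values of the named genes under the alternatives, 563 kept direction and side of the threshold, 53 lost the call, 11 gained one and 11 changed sign. Those that changed sign were all uncalled after SCI: Epha4 (-0.004) and Efna5 (-0.002) with no filter, Slit3 (0.015) with library totals as the only scaling, and others with a library left out. Over the libraries left out, log2 fold changes ranged from -0.031 to 0.105 for Epha4, -0.266 to 0.268 for Efna5, -0.211 to 0.665 for Slit1, -0.131 to 0.086 for Slit3, -0.391 to 0.048 for Robo4 and -0.001 to 0.343 for Ntn4; Epha4, Efna5, Slit1 and Robo4 changed sign without non-injured replicate 3, Efna5 and Ntn4 without SCI replicate 1, and Slit3 without non-injured replicate 2 or SCI replicate 3. With single libraries left out, members called ranged from 7 to 16 for SCI against non-injured cord, 0 to 6 for syngeneic MSC against SCI, 0 to 0 for allogeneic MSC against SCI, 0 to 5 between the transplants, 1 to 8 for syngeneic and 8 to 18 for allogeneic MSC against non-injured cord. The share of all genes called moved too: for allogeneic MSC it was 15.5% without allogeneic replicate 2 and 16.2% without non-injured replicate 1, where 8 members were called, and 27.7% without allogeneic replicate 1, where 18 were. DESeq2 called 1 member for syngeneic MSC against SCI (0.793% of all genes), and edgeR called 0 for syngeneic MSC against non-injured cord when only these 2 groups were fitted (1.06% of all genes; 8 members under an unadjusted p of 0.05). The cause was not tested.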
